A study of Caenorhabditis elegans with 6 samples.

Results

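The genes described here encode the control enzymes of glycolysis and gluconeogenesis in the nematode Caenorhabditis elegans. They are 10 of the 45519 genes listed, chosen by gene name: the hexokinase genes hxk-1, hxk-2 and hxk-3, the phosphofructokinase genes pfk-1.1 and pfk-1.2, the pyruvate kinase genes pyk-1 and pyk-2, the fructose-bisphosphatase gene fbp-1, and the phosphoenolpyruvate carboxykinase (PEPCK) genes pck-1 and pck-2. All 10 were found and all 10 passed the filter for testing, a mean of at least 1 FPKM (fragments per kilobase, scaled to the size of the library). RNA was sequenced from whole larvae of the N2 wild type (3 libraries) and of a strain carrying the aqz 3 allele of the long noncoding RNA gene linc-133 (3 libraries, called mutant below). Larvae of both strains had been kept from the egg in M9 buffer, which holds no food, for 3 days at 20 °C, so that they stopped in the first larval stage (L1 arrest). The labels do not say what the allele changes, how many mutant lines were used or whether the replicates were separate cultures, and a p-value here speaks only of how far these libraries scatter, which could be technical scatter. The libraries held 16108063 to 18556695 reads on genes.

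Glycolysis breaks glucose down to pyruvate, and gluconeogenesis builds sugar from smaller molecules. The 2 routes share most enzymes, which work in either direction, but differ at a few irreversible steps, where each direction has its own enzyme. Hexokinase, phosphofructokinase and pyruvate kinase drive the breakdown, while PEPCK and fructose-bisphosphatase drive the synthesis. Starved C. elegans larvae live on stored fat and other reserves, and PEPCK stands where carbon from such stores can enter sugar synthesis. The comparison asked at which of these steps the transcripts of arrested mutant larvae differed from those of arrested wild-type larvae. Whole larvae were measured, so fewer cells of a type and less RNA per cell cannot be told apart.

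In the mutant libraries, fbp-1 had the largest ratio of means among the 10 genes, at 2.57 times the wild-type mean, with every mutant library above every wild-type library. pck-1 had 1.57 times the wild-type mean, carried by mutant replicates 2 and 3, and pck-2 had 1.04 times. The 7 genes of the breakdown direction had mutant means at 0.745 to 1.102 times the wild-type mean. None of the 10 passed an adjusted p of 0.05 in limma's test over 16794 genes, where 0% of the tested genes did. Only fbp-1 had an unadjusted p under 0.05, 1 of 10 genes, where 13.7% of all tested genes did. Mutant and wild-type libraries were fully separate for 4 of the 10 genes, against 20.0% of all tested genes. They were higher in the mutant for fbp-1 and hxk-3 (10.5% of all tested genes) and lower for pyk-1 and hxk-2 (9.54% of all tested genes). The median log2 change was -0.015 over the 10 genes and -0.0015 over all tested genes.

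**Figure D1:**
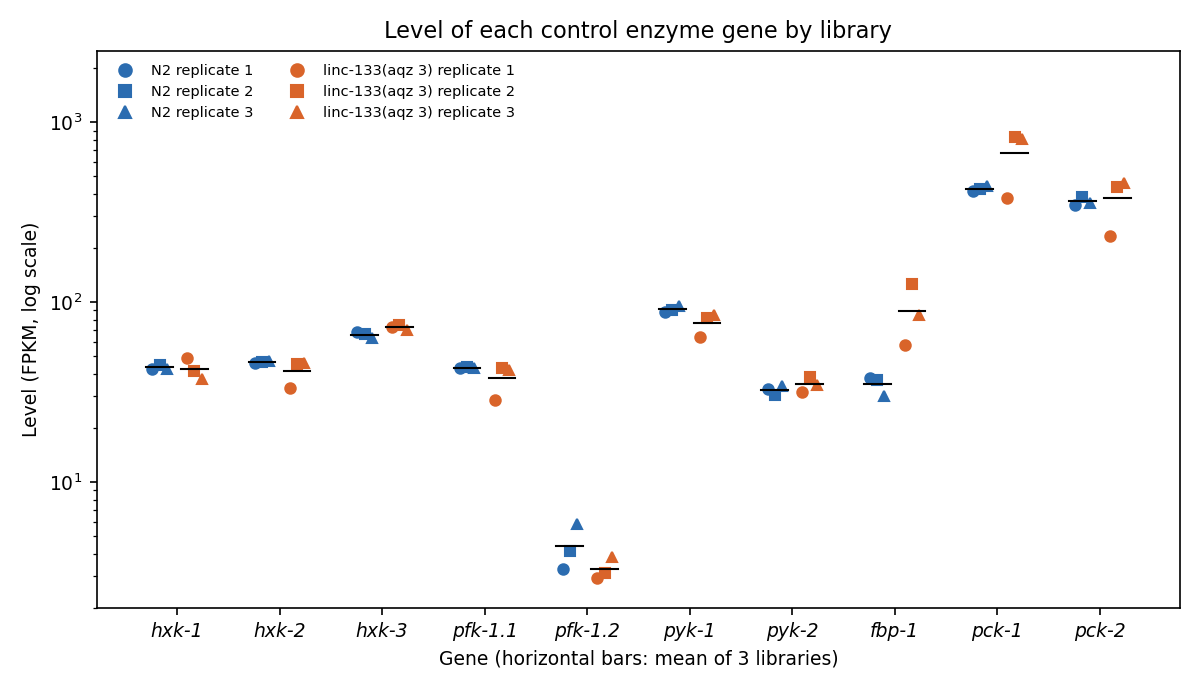
Level of each of the 10 genes in each library, in FPKM on a log scale, with N2 in blue, the mutant in orange, a marker shape per replicate and a black bar at the mean of 3 libraries. The PEPCK genes lie highest and pfk-1.2 lowest in both strains, and the 3 mutant values of fbp-1 lie above the 3 wild-type values.

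Levels per gene length spanned a wide range in the wild type. pck-1 was highest, at 428 ± 12.99 FPKM (SD, n = 3), followed by pck-2 at 363 ± 19.7 FPKM, pyk-1 at 91.7 ± 3.44 FPKM and hxk-3 at 66.0 ± 2.73 FPKM. These 4 did not overlap with their neighbours in the order. hxk-2 (46.5 ± 0.473 FPKM) lay just above hxk-1 (43.4 ± 1.31 FPKM) and pfk-1.1 (43.2 ± 0.404 FPKM), and the last 2 overlapped. fbp-1 (34.9 ± 4.28 FPKM) and pyk-2 (32.5 ± 1.92 FPKM) also overlapped. pfk-1.2 was lowest, at 4.43 ± 1.31 FPKM. By mean level over all 6 libraries, pck-1 was at rank 195 and pck-2 at rank 290 of the 16794 tested genes, and pfk-1.2 was at rank 11855. In the mutant, fbp-1 stood at position 3 instead of 8, where it overlapped with pyk-1, and hxk-1 stood above hxk-2, with overlapping libraries. The other genes kept their order relative to each other.

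Hexokinase puts a phosphate on glucose and so commits it to the cell. hxk-1 lies on chromosome I from 9271146 to 9278886 on the minus strand, hxk-2 on chromosome I from 11311513 to 11323110 on the minus strand, and hxk-3 on chromosome IV from 1497626 to 1510027 on the plus strand. Positions are those in the authors' deposited table, on WBcel235. The levels of hxk-3 were 68.1, 67.0 and 62.9 FPKM in the wild type and 73.2, 74.8 and 70.1 FPKM in the mutant, in the order of replicates 1, 2 and 3, as for all genes below. The mutant libraries were all higher, by a log2 change of 0.14 ± 0.11 (SE; 95% interval -0.13 to 0.40; adjusted p = 0.641 in limma). hxk-2 measured 46.1, 46.3 and 47.0 FPKM in the wild type and 33.3, 45.5 and 45.8 FPKM in the mutant. All 3 mutant values were lower, but mutant replicates 2 and 3 by little, and replicate 1 carried most of the difference of means. This gave a log2 change of -0.17 ± 0.15 (SE; 95% interval -0.54 to 0.20; adjusted p = 0.673 in limma), which was -0.026 without mutant replicate 1. hxk-1 measured 42.7, 44.9 and 42.5 FPKM in the wild type and 49.2, 41.6 and 37.6 FPKM in the mutant, with overlapping strains and a log2 change of -0.027 ± 0.14 (95% interval -0.35 to 0.30). Here mutant replicate 1 was the highest of the 6 libraries, not the lowest. Summed over the 3 hexokinase genes, the wild type had 156 ± 2.98 FPKM and the mutant 157 ± 4.40 FPKM (SD over 3 libraries per strain), with overlapping libraries.

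Phosphofructokinase adds the second phosphate and is the main point of control in glycolysis. pfk-1.1 (chromosome X, 2940872 to 2945485, plus strand) measured 43.3, 43.6 and 42.8 FPKM in the wild type and 28.6, 43.2 and 42.0 FPKM in the mutant. Mutant replicate 1 stood apart, while mutant replicate 2 lay inside the wild-type range and replicate 3 just under it. For pfk-1.1 the log2 change was -0.21 ± 0.18 (SE; 95% interval -0.63 to 0.22), and it was -0.020 without mutant replicate 1. pfk-1.2 (chromosome V, 9531801 to 9534537, plus strand) measured 3.28, 4.15 and 5.85 FPKM in the wild type and 2.92, 3.13 and 3.85 FPKM in the mutant. These values rest on 122 to 241 reads per library, against 2095 to 2937 for pfk-1.1. The strains overlapped, with a log2 change of -0.31 ± 0.23 (95% interval -0.85 to 0.22). It was -0.13 without wild-type replicate 3 and -0.47 without wild-type replicate 1. pfk-1.1 held 90.7 ± 2.53% of the summed phosphofructokinase FPKM in the wild type and 91.9 ± 1.28% in the mutant. That sum was 46.5, 47.8 and 48.7 FPKM in the wild type and 31.5, 46.4 and 45.9 FPKM in the mutant. It did not overlap between the strains, but mutant replicates 2 and 3 were lower by little, and it was not tested.

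Pyruvate kinase makes pyruvate from phosphoenolpyruvate at the end of glycolysis. pyk-1 (chromosome I, 9168424 to 9177498, plus strand) measured 88.7, 91.0 and 95.4 FPKM in the wild type and 64.1, 82.0 and 85.0 FPKM in the mutant. Each mutant library was below each wild-type library, with replicate 1 farthest. The fitted log2 change of pyk-1 was -0.26 ± 0.15 (SE; 95% interval -0.61 to 0.089; adjusted p = 0.481 in limma). pyk-2 (chromosome IV, 10909913 to 10913078, plus strand) measured 32.8, 30.5 and 34.3 FPKM in the wild type and 31.7, 38.6 and 34.9 FPKM in the mutant. Here the strains overlapped, with a log2 change of 0.10 ± 0.13 (95% interval -0.20 to 0.40). The sum of both genes was 121.5, 121.5 and 129.7 FPKM in the wild type and 95.7, 120.6 and 119.8 FPKM in the mutant. The sum did not overlap between the strains, but mutant replicates 2 and 3 were lower by little, and it was not tested. Leaving out 1 library in turn put the log2 change of pyk-1 between -0.33 and -0.13, smallest without mutant replicate 1, and that of pyk-2 between 0.031 and 0.17, smallest without mutant replicate 2. For the genes of the breakdown direction other than pfk-1.2, the 95% intervals reached from 0.645 to 1.32 in folds of FPKM + 1. A 2-fold difference lay outside each. Those intervals are per gene and rest on scatter that could be technical, so they do not exclude a 2-fold difference between the strains. The interval of pfk-1.2, from 0.554 to 1.17, is also on a scale that understates changes at its low level, and a 2-fold difference is not excluded there either.

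Fructose-bisphosphatase takes the phosphate off again and opposes phosphofructokinase. fbp-1 (chromosome I, 2580935 to 2587110, minus strand) had levels of 37.8, 37.0 and 30.0 FPKM in the wild-type libraries, and of 57.9, 127 and 84.6 FPKM in the mutant libraries. The lowest mutant library was at 57.9 FPKM and the highest wild-type library at 37.8 FPKM. The reads behind these values were 1626, 1498 and 1155 in the wild type and 2690, 4610 and 2976 in the mutant. In limma the log2 change of fbp-1 was 1.27 ± 0.28 (SE; 95% interval 0.60 to 1.94), with an unadjusted p of 0.00309 and an adjusted p of 0.180. Of all tested genes, 1.71% had a lower p. Without mutant replicate 1 it was 1.55, and 0.99 without mutant replicate 2. The adjusted p was 0.0216 in limma's voom with a quality weight per library, a test in which 349 genes passed in all, and it was 0.0810 to 0.488 under the other alternatives run. Among the mutant libraries, that weighted test leaned on replicate 2, the highest for fbp-1. Its weight was 0.937, against 0.570 and 0.424 for mutant replicates 1 and 3, and the log2 change there was 1.40.

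PEPCK turns oxaloacetate into phosphoenolpyruvate and is the first committed step of sugar synthesis from such acids. pck-1 (chromosome III, 62879 to 66260, minus strand) measured 416, 425 and 442 FPKM in the wild type and 379, 831 and 808 FPKM in the mutant. Mutant replicates 2 and 3 stood well above every wild-type library, and mutant replicate 1 below every one. The log2 change was 0.57 ± 0.30 (SE; 95% interval -0.16 to 1.29; adjusted p = 0.460 in limma). Without mutant replicate 1 it was 0.94 ± 0.11, with an adjusted p of 0.0974 in limma. It was 0.37 without mutant replicate 2 (adjusted p = 0.743 in limma) and 0.39 without mutant replicate 3 (adjusted p = 0.583 in limma). pck-2 measured 347, 385 and 358 FPKM in the wild type and 233, 439 and 462 FPKM in the mutant. As for pck-1, mutant replicate 1 was the lowest library and mutant replicates 2 and 3 the highest. Its strains overlapped, with a log2 change of -0.0036 ± 0.27 (95% interval -0.64 to 0.64), and 0.31 without mutant replicate 1.

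The pck-2 value needs a limit. In the deposited table its gene model runs on chromosome I from 7741437 to 7911654, 170218 bases that hold or touch 35 other listed genes, 29 of them protein-coding. In the Ensembl annotation of the same build, pck-2 runs from 7866136 to 7872100, with 3318 exonic bases against the 4111 bases by which the authors divided. Whether reads from other genes in that span were counted for pck-2 was not tested. Of the 10 genes, 4 had the same ends in both annotations and all 10 overlapped. Next to pck-2, the largest excess in length was for hxk-1, with 2476 bases against 2101, and fbp-1, with 2256 against 2048. A gene's length is the same in all libraries and cancels in the ratio between strains.

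**Figure D2:**
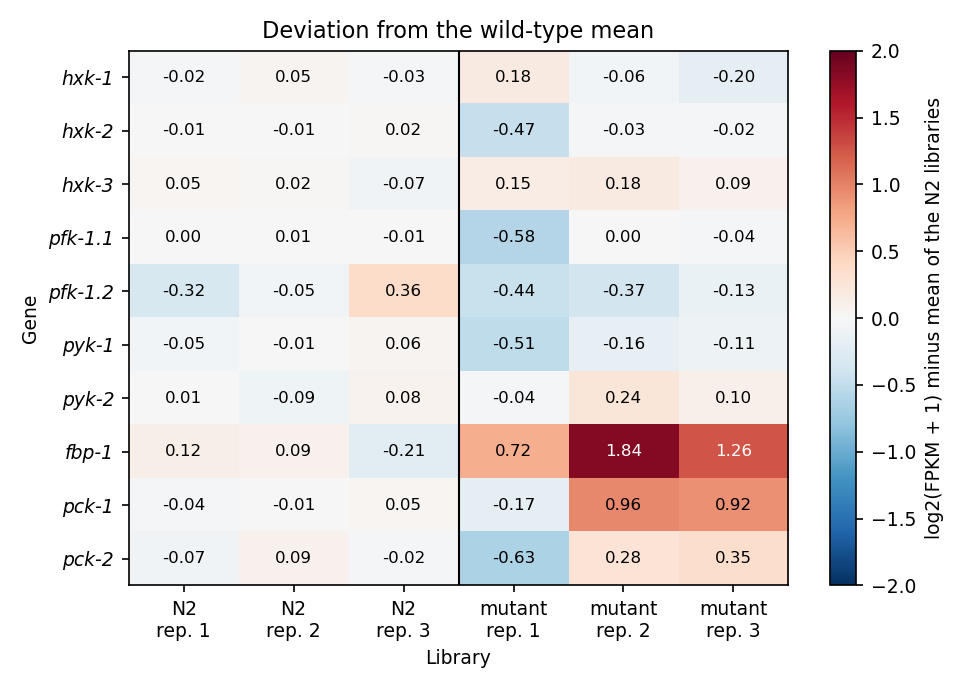
Log2(FPKM + 1) of each gene in each library minus the mean of the 3 N2 libraries, with red for higher and blue for lower. fbp-1 is red in all 3 mutant libraries, and pck-1 in mutant replicates 2 and 3. Mutant replicate 1 is most blue for pck-2, pfk-1.1, pyk-1, hxk-2 and pfk-1.2, and fainter blue for pck-1.

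Among the 10 genes, mutant replicate 1 differed from the other mutant libraries. It was the lowest of the 6 libraries in 6 of the 10 genes (hxk-2, pfk-1.1, pfk-1.2, pyk-1, pck-1 and pck-2) and in 19.4% of all tested genes. The pattern was not particular to the 10, as mutant replicate 1 was also lowest in 15 of the 29 other tested genes of the pathway. The authors' values include a scaling between libraries that lowers this library the most, with a read total 1.12 times the recovered total, against 0.900 times in mutant replicate 3. Over all tested genes, mutant replicate 3 stood apart as well. Its quality weight in limma's voom was the lowest of the 6 libraries, at 0.424, against 0.570 for mutant replicate 1 and 0.937 for mutant replicate 2. Without mutant replicate 1, 3 of the 10 genes had an unadjusted p under 0.05 in limma, all with higher mutant means (fbp-1, pck-1 and pck-2). Of all 16794 tested genes, 16.9% had such a p in either direction, and 1511 had one with higher mutant means. In that fit 0 of the 10 passed an adjusted p of 0.05. The counts rest on mutant replicate 1: without mutant replicate 2 or 3, or any 1 wild-type library, 1 of the 10 genes had such a p. Over all tested genes, 1643 did without mutant replicate 2 and 2920 without mutant replicate 3. Without wild-type replicate 1, 2 or 3, the number over all tested genes was 2229, 1354 or 1390. Of the 29 other pathway genes described below, 8 had such a p without mutant replicate 1, all higher in the mutant. Without mutant replicate 2, 1 of the 29 did, and 1 did without mutant replicate 3, both lower in the mutant. Among all tested genes, 835 and 1460 were lower with such a p in those 2 fits. Without the authors' scaling, mutant replicate 1 was lowest in 4 of the 10 genes, 10 of the 29 other pathway genes and 11.1% of all tested genes. The spread within the mutant was also larger: the median SD of log2(FPKM + 1) was 0.056 in the wild type and 0.24 in the mutant over the 10 genes, and 0.18 and 0.28 over all tested genes. hxk-3 and pfk-1.2 were the genes with a smaller spread in the mutant. The other 8 had a larger one, as did 23 of the 29 other pathway genes. So did 66.2% of all tested genes, which were not matched to the 10 by level.

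The balance between paralogues and between opposed enzymes was compared within each library, where a scaling between libraries cancels. These shares and ratios are descriptions with no test. pck-1 held 54.6, 52.5 and 55.3% of the summed PEPCK FPKM in the wild type and 61.9, 65.4 and 63.6% in the mutant. The share was higher in every mutant library, replicate 1 included, with means of 54.1 ± 1.43% and 63.6 ± 1.75% (SD over 3 libraries per strain). These shares use the authors' gene lengths and carry the limit on pck-2. pyk-2 held 27.02, 25.1 and 26.4% of the summed pyruvate kinase FPKM in the wild type and 33.1, 32.0 and 29.1% in the mutant, again without overlap. hxk-3 held 43.4, 42.3 and 41.3% of the summed hexokinase FPKM in the wild type and 47.0, 46.2 and 45.7% in the mutant. The shares of hxk-1, hxk-2, pfk-1.1 and pfk-1.2 overlapped between the strains.

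The ratio of fbp-1 to summed phosphofructokinase FPKM was 0.812, 0.774 and 0.616 in the wild type and 1.84, 2.73 and 1.84 in the mutant. fbp-1 was thus below the summed kinase genes in each wild-type library and above that sum in each mutant library. On the log2 scale the ratio was -0.46 ± 0.21 in the wild type and 1.07 ± 0.33 in the mutant (SD over 3 libraries per strain), a difference of 1.53 of which fbp-1 itself makes up most. At the other end of the pathway, the ratio of summed PEPCK to summed pyruvate kinase FPKM was 6.28, 6.67 and 6.16 in the wild type and 6.40, 10.5 and 10.6 in the mutant. Mutant replicate 1 lay inside the wild-type range and the other mutant libraries above it.

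**Figure D3:**
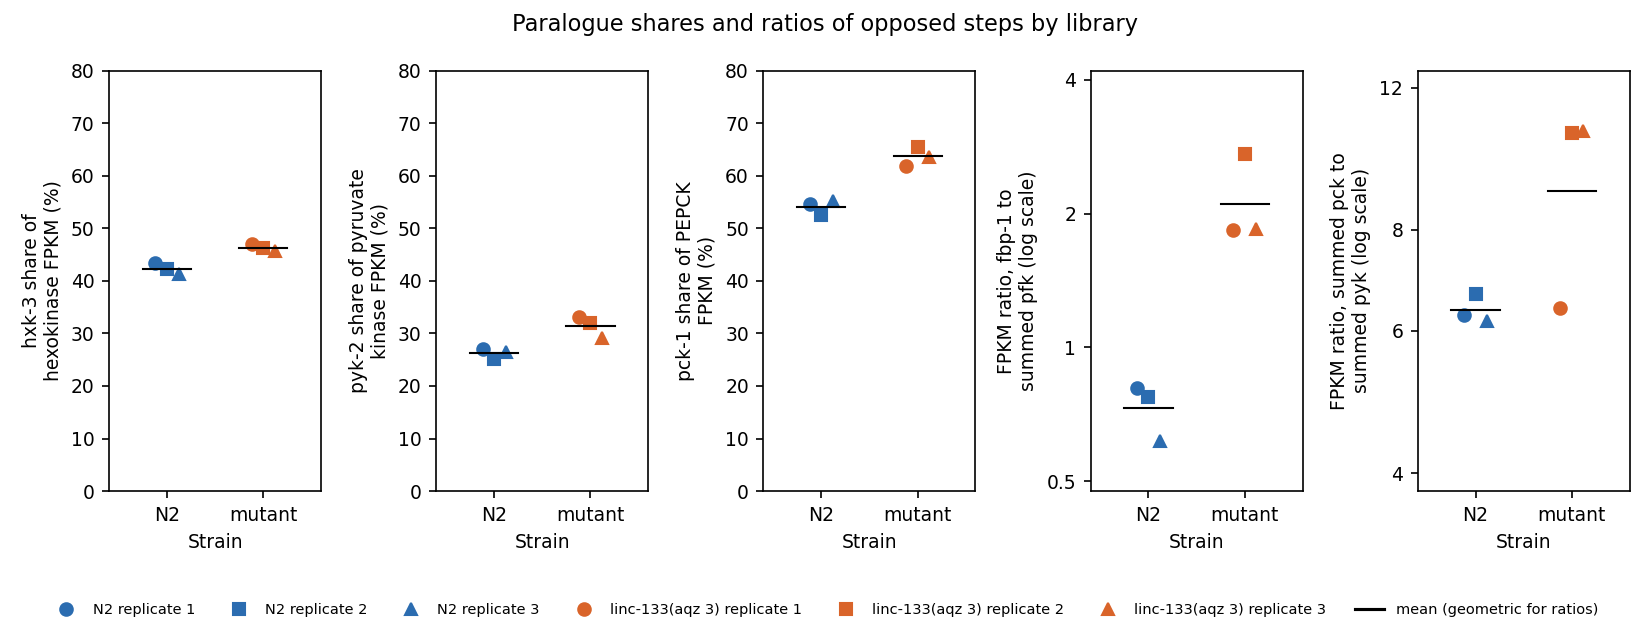
Shares of a paralogue in the summed FPKM of its family, in percent from 0, and FPKM ratios of opposed enzymes on log scales, by library, with bars at the mean (geometric for the ratios). The shares of hxk-3, pyk-2 and pck-1 and the ratio of fbp-1 to phosphofructokinase do not overlap between the strains, and the ratio of PEPCK to pyruvate kinase does.

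The other genes of the pathway were described from lists of 32 genes, of which 29 passed the filter. In limma 0 of the 29 passed an adjusted p of 0.05, 2 had an unadjusted p under 0.05 with higher mutant means and 0 with lower ones, where 7.22% and 6.48% of all tested genes did. The median log2 change was 0.073, with 21 changes above 0 and 8 below, where 8366 of all 16794 tested genes had changes above 0 and 8428 below. That median of the 29 depended on single libraries, at 0.0079 without mutant replicate 2 and 0.22 without mutant replicate 1. Libraries were fully separate with higher mutant values for pyc-1, pdhk-2 and pfkb-1.2, which is 3 of the 29 genes, a share near the 10.5% of all tested genes.

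Of 9 tested genes for the reversible steps, 0 had an unadjusted p under 0.05 in limma (0 passed an adjusted p of 0.05), the strains overlapped in all 9 and log2 changes lay between -0.11 and 0.44. The aldolase gene aldo-2 was the most abundant gene of the pathway, at a wild-type level of 2213 ± 244 FPKM and a mutant level of 2120 ± 393 FPKM (SD over 3 libraries per strain). The enolase gene enol-1 measured 317 ± 15.4 and 298 ± 63.7 FPKM, and the triosephosphate isomerase gene tpi-1 199 ± 7.43 and 233 ± 53.9 FPKM, in that order. The glyceraldehyde-3-phosphate dehydrogenase gene gpd-1 had the largest change of these, with 41.9 ± 12.2 and 55.8 ± 3.24 FPKM (adjusted p = 0.412 in limma). gpd-1 has a near-identical copy, gpd-4, and gpd-3 has one, gpd-2, so the level of each is uncertain.

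The bifunctional enzymes of the pfkb genes make and remove fructose-2,6-bisphosphate, a signal known from other animals to activate phosphofructokinase and inhibit fructose-bisphosphatase. pfkb-1.2 measured 22.3, 15.8 and 16.8 FPKM in the wild type and 24.1, 25.1 and 22.4 FPKM in the mutant. The mutant libraries were higher by a narrow margin, with a log2 change of 0.38 ± 0.16 (SE; adjusted p = 0.363 in limma). pfkb-1.1 measured 62.3 ± 5.11 FPKM in the wild type and 75.4 ± 11.3 FPKM in the mutant, with overlapping libraries.

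Around pyruvate and oxaloacetate, pyruvate carboxylase supplies the oxaloacetate that PEPCK uses. Its gene pyc-1 (chromosome V, 11817783 to 11822580, minus strand) measured 57.6, 66.3 and 41.6 FPKM in the wild type and 67.2, 134 and 137 FPKM in the mutant. Mutant replicate 1 lay just above the highest wild-type library, and replicates 2 and 3 far above it. pyc-1 had a log2 change of 0.97 ± 0.32 (SE; 95% interval 0.21 to 1.73; unadjusted p = 0.0193, adjusted p = 0.270 in limma). Malate dehydrogenase interconverts malate and oxaloacetate, and its genes mdh-1 and mdh-2 lay above the wild-type range in mutant replicates 2 and 3 and within it in replicate 1. For mdh-2 the levels were 99.0, 97.9 and 88.3 FPKM in the wild type and 97.7, 166 and 155 FPKM in the mutant. pdhk-2, for a kinase that switches pyruvate dehydrogenase off, measured 15.9 ± 0.916 and 20.3 ± 3.60 FPKM. The pyruvate carrier gene mpc-2 was the only one of the 12 tested genes around pyruvate with a negative log2 change, at -0.34 ± 0.16 (adjusted p = 0.414 in limma), with overlapping libraries. The lactate dehydrogenase gene ldh-1 measured 103 ± 7.23 and 110 ± 26.3 FPKM. The strains also overlapped in all 6 genes for glycogen and glucose entry, among them the glycogen synthase gene gsy-1 at 42.6 ± 2.26 and 50.5 ± 19.0 FPKM and the glycogen phosphorylase gene pygl-1 at 73.1 ± 4.83 and 73.3 ± 20.5 FPKM.

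**Figure D4:**
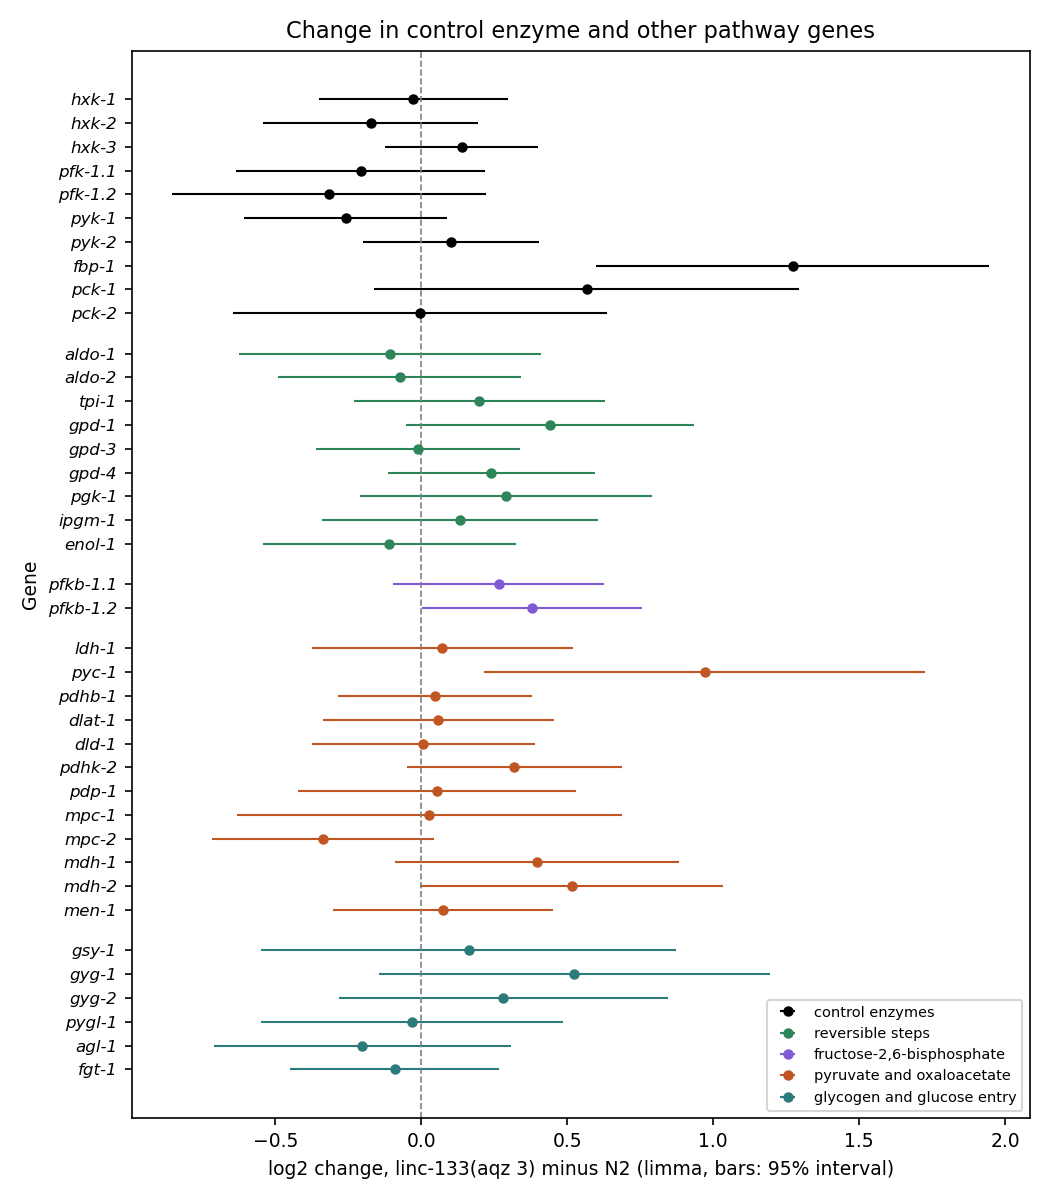
Log2 change between mutant and wild type in limma, with its 95% interval, for the 10 control enzyme genes in black and the 29 other tested genes of the pathway in colours by list. The intervals of fbp-1, pyc-1 and pfkb-1.2 lie above 0 before adjustment for 16794 tests, and the intervals of the other genes include 0.

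The larvae carried markers of body wall and pharyngeal muscle, intestine, neurons, epidermis and germ cells in both strains, while the 6 yolk protein genes of adults each had a mean under 1 FPKM. Of the 5 epidermis markers, 1 had a mean under 1 FPKM. Of the 5 sperm markers, 2 passed the filter. The sperm list summed to 0.973 to 3.33 FPKM over the wild-type libraries and 2.22 to 5.32 FPKM over the mutant libraries. All 8 early embryo markers also passed the filter. They summed to 180 to 321 FPKM over the wild-type libraries and 242 to 298 FPKM over the mutant libraries, so the markers do not show larvae alone. Of 10 marker lists, heat shock genes were the one whose summed level did not overlap between the strains, at 1012 to 1759 FPKM over the wild-type libraries and 3790 to 11005 FPKM over the mutant libraries, with higher values in 7 of 7 listed genes. The heat shock sum was highest in mutant replicate 3 and fbp-1 in mutant replicate 2. Intestinal markers summed to 1128, 1289 and 1324 FPKM in the wild type and 979, 1267 and 1391 FPKM in the mutant. Body wall muscle markers summed to 2272, 2532 and 2273 FPKM in the wild type and 1706, 2071 and 3978 FPKM in the mutant. Both sums were lowest in mutant replicate 1, as were 6 of the 10 genes, the PEPCK genes among them. The part of these marker levels in the results was not tested. linc-133 itself was counted with 9, 6 and 5 reads in the wild type and 6, 2 and 2 in the mutant, too few to check the labels.

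For each gene, the protein-coding gene of at least 10 FPKM with the most similar pattern over the 6 libraries was found by the root-mean-square difference of log2(FPKM + 1) after centring. For fbp-1 it was the fatty acid desaturase gene fat-5, at a difference of 0.049 where the median over 8095 genes was 0.74. fat-5 measured 12.6, 11.1 and 9.29 FPKM in the wild type and 18.7, 40.0 and 26.3 FPKM in the mutant, so its libraries had the same order as those of fbp-1. For pck-1 it was the protein phosphatase 1 regulatory subunit gene H18N23.2 (0.078, median 0.50), and for pck-2 sma-10 (0.059, median 0.38). For the breakdown direction these were cox-4 for hxk-1, vha-11 for hxk-2, set-4 for hxk-3, rla-0 for pfk-1.1, K01A6.4 for pfk-1.2, ZK1073.1 for pyk-1 and Y92H12BR.3 for pyk-2, at differences of 0.019 to 0.076. Each is the best of 8095 or 8096 genes over only 6 libraries, and is a description.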

How the data were processed

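RNA was extracted with Trizol and libraries were made with an Illumina TruSeq RNA kit, per the labels' protocols. STAR 2.5.2b, Bowtie 0.12.2, StringTie and the build WBcel235 are named, without roles, per the submitters' processing notes. How reads were counted and on which annotation is not given in the sources used here. FPKM for each gene in each library were deposited by the authors, beside a gene length in bases. Each value was multiplied by that length and divided by a constant fitted for its library. After this, 100% of 131954 values came within 0.01 of a whole number, taken as the recovered reads. Genes averaging 1 FPKM or more were tested with limma 3.58.1 (R 4.3.3) on log2(FPKM + 1), trend and robust, group as the only term, all 6 libraries, Benjamini-Hochberg over all 16794 genes, threshold 0.05. Log2 changes on this scale understate low genes. Moderated standard errors and 95% intervals are limma's. The fit was tested on simulated data. Members and lists were chosen with earlier results of these data known. Named genes are the 10 members, the pathway lists and the nearest pattern per member. No sequences were used here.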

Additional observations from a re-analysis of the deposited data

How the results depend on the processing

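No tested gene of the 10 passed the threshold in the alternatives run (pseudocounts 0.1 and 5, filters, scalings, protein-coding genes alone, each library left out, 0 to 0) except limma's voom with a quality weight per library, where 1 did (fbp-1). With the filter at a mean of 5 FPKM, 9 of the 10 were tested, without pfk-1.2. The count for the other pathway genes was 0 in each (0 to 0 without 1 library). Over all genes it was 0 in the main test and 0 to 0 without 1 library, 23 in limma without trend and robust moderation, 1 where genes averaging 10 recovered reads or more were tested, 3 with voom on recovered reads, 349 in voom with quality weights, 1 among protein-coding genes and 9 at an adjusted p of 0.1. The log2 change of hxk-1 (-0.027) was -0.13 to 0.060 without 1 library, above 0 without mutant replicate 3. That of pck-2 (-0.0036) was -0.18 to 0.31, above 0 without wild-type replicate 2 (0.039) or mutant replicate 1 (0.31); the other 8 genes kept their sign wherever they were tested. For fbp-1 it was 0.99 to 1.55 without 1 library. From recovered reads without division by length, the pyk-1 share differed by -3.24 and the pyk-2 share by 3.24 percentage points between the strains, against -5.21 and 5.21 from FPKM. Without 1 library, the strain difference was 8.66 to 10.4 points for the pck-1 share, 4.38 to 6.36 for the pyk-2 share, 3.43 to 4.50 for the hxk-3 share and 1.34 to 1.62 for the log2 ratio of fbp-1 to phosphofructokinase. Same-numbered libraries of the strains did not deviate together (correlations 0.0162, -0.0344 and 0.0288), so the numbers are not taken as pairs; with the replicate block the count was 0 for the 10 genes and 0 over all genes, and fbp-1 had an adjusted p of 0.326. Depth limits pfk-1.2, with 984 reads in all; intervals from so few libraries are wide for the PEPCK genes.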

Other observations

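Of the 32 other pathway genes, 3 did not reach the filter although each encodes an enzyme of central metabolism. gpi-1, for glucose-6-phosphate isomerase, had 33 reads over all 6 libraries, and its span on chromosome I (13576148 to 13581611) overlaps that of ubc-14, at a mean of 17.2 FPKM. gpd-2, for glyceraldehyde-3-phosphate dehydrogenase, is listed at 0 in every library, and its span on chromosome X (3112291 to 3116581) overlaps that of gpd-3, at a mean of 398 FPKM, with gene lengths of 2211 and 2469 bases in the deposited table against 1152 and 1155 exonic bases in Ensembl. pdha-1, for a pyruvate dehydrogenase subunit, had 10 reads, while the partner subunit gene pdhb-1 had 14617. Whether reads of these 3 genes were lost where gene models overlap was not tested.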
